A study of Mus musculus with 6 samples.

Results

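The genes described here are mouse genes named Zfp and a number, the symbol family of zinc finger proteins, whose transcripts were above background in a pair of hybridomas. The members were chosen by their detection scores on these arrays: a gene belonged when at least 1 of its probes had a detection score over 0.95 on 3 or more of the 6 arrays. This held for 194 of the 328 Zfp genes with a probe, or 59.1%, and for 49.3% of the 19057 genes with a single symbol on the array. The other 134 Zfp genes did not meet it and were not tested.

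A hybridoma is a cell line grown from the fusion of a tumour cell and a lymphocyte. Total RNA came from hybridoma S2, labelled as producing IL-17 (producing, n = 3), and from hybridoma DE3, labelled as not producing it (non-producing, n = 3). Both were grown in RPMI medium with fetal calf serum, and RNA was hybridized to Illumina bead arrays. The labels give no strain, fusion partner or stimulation. Each group carried 1 clone name, so the groups stand for 2 hybridomas, not for many producing and non-producing cells. Nothing states that the 3 samples of a group were separate cultures, so the p-values cover only the variation among these samples, part or all of which may be technical.

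A zinc finger is a short fold held by a zinc ion. In the C2H2 class, each finger can read a few bases of DNA, and rows of fingers give a protein its target sequence. Many C2H2 proteins of mammals also carry a KRAB domain, which recruits the corepressor Trim28 and with it histone methyltransferases and HP1 proteins that silence retroelements and other targets. The symbol Zfp is broader than that class and includes proteins that bind RNA, act on ribosomes or regulate signalling.

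Slightly fewer Zfp genes were detected on each producing array than on any non-producing one. Of the 328 Zfp genes, 185, 188 and 184 were detected on the producing arrays and 192, 189 and 189 on the non-producing arrays. The same held over all probes on the array and was not particular to Zfp genes. Of all probes, 36.92, 37.42 and 37.18% were detected on the producing arrays and 39.4, 37.96 and 38.16% on the non-producing arrays. Mean signal, 398.6 to 481.6 in producing and 505 to 559.5 in non-producing, moved with the group over all probes, and its part in the results was not tested. The 6 arrays shared 1 chip, on which the arrays of a group were neighbours, so position and group cannot be told apart. Il17a and Il17f were detected on 0 of the 6 arrays and did not check the labels. Of 9 T cell markers with a probe, 7 were detected (Cd3d, Cd3e, Cd3g, Cd247, Cd28, Zap70 and Lat). Of the markers of other cells with a probe, 1 of 6 for B cells, 1 of 8 for myeloid cells, 1 of 6 for stroma and 1 of 3 for erythroid cells were detected.

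Most Zfp transcripts differed little between the hybridomas. Of the 166 Zfp genes detected on all 6 arrays, 52 were past the threshold, an adjusted p of 0.05 in limma (Benjamini-Hochberg over all 17445 tested probes), 20 higher and 32 lower in producing. That was 31.3%, against 37.5% of all 8189 genes detected on all 6 arrays, of which 19.3% were higher and 18.3% lower. None of the 166 reached a 2-fold difference in either direction, a size that 2.77% of the 8189 genes reached and passed. Over these 166 genes the log2 difference, producing minus non-producing, ran from -0.95 to 0.67 with a median of -0.06, and the 8189 genes had a median of 0.0043. The 2 groups did not overlap for 80 of the 166, or 48.2%, and for 53.7% of the 8189 genes.

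With the 28 genes detected on 3 to 5 arrays added, 62 of 194 passed, 23 higher and 39 lower, against 36.7% of all 9395 tested genes (18.1% higher and 18.6% lower). A measured difference of 2-fold was shown by 2 of them (3.63% of all tested genes), Zfp365 and Zfp941, which were detected on 0 producing arrays, so the measured fold is not exact. The 28 include genes that entered only through the hybridoma in which they were brighter, so this count is a description. The groups did not overlap for 90 of the 194 (46.4%) and for 51.3% of all tested genes. The median size of a difference was 0.20 for the Zfp genes and 0.21 for all genes, and among those past the test 0.40 and 0.47. Within a group, the standard deviation of a Zfp gene was 0.12 in the median.

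The balance between higher and lower rested on how the arrays were scaled. When quantile normalization was replaced by scaling the background-corrected signals to a common median, all genes shifted to a median of -0.23, with 473 higher and 3308 lower. The Zfp genes then had a median of -0.28, which is -0.05 relative to that shift, with 6 higher and 81 lower. The 6 were Zfp516, Zfp593, Zfp597, Zfp661, Zfp827 and Zfp870, and each had passed as higher in the quantile-normalized values as well. All 39 genes that passed as lower there also passed as lower with the common median. Zfp516, Zfp827 and Zfp870 were not detected on all 6 arrays and met the detection rule through producing, where they were brighter. The 39 likewise include genes that met it through non-producing, among them Zfp365 and Zfp941. For such genes the calls are a description and not a test.

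**Figure D1:**
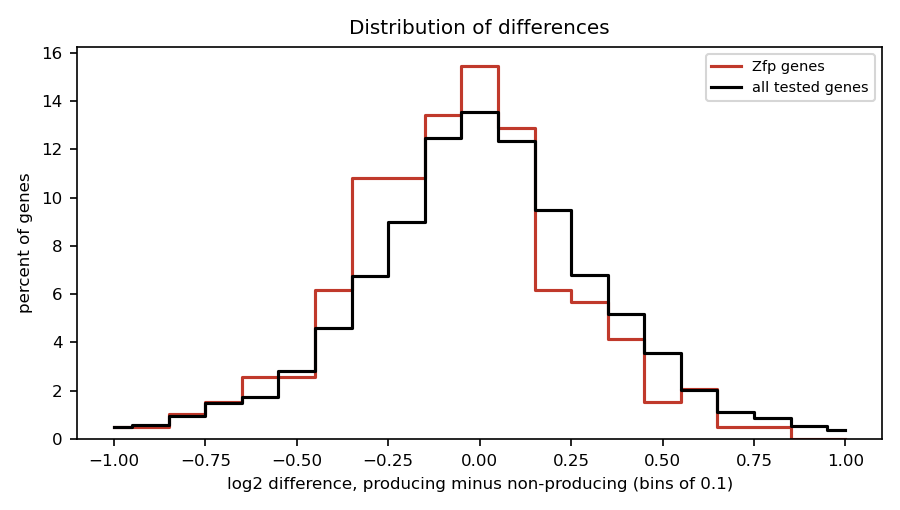
Distribution of log2 differences, producing minus non-producing, in bins of 0.1 (x axis), as percent of genes (y axis), for the 194 Zfp genes (red) and all 9395 tested genes (black). Both centre near 0; 2 Zfp genes and 3.27% of all genes lie beyond the plotted range.

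Detection set apart 6 Zfp genes, each with a probe detected on the 3 arrays of one hybridoma and with no probe detected on any array of the other. Producing alone had 2 of them, against 0.479% of all tested genes, and non-producing alone had 4, against 1.75%. These shares describe how the genes were chosen. For the same reason the folds are given without a test, as lower bounds against the lowest detected signal of each array (4.97 to 5.10 on the log2 scale). Each bound holds only for the brightest probe and the background correction used here. With an offset of 50 or without background correction, the measured differences of all 6 were smaller.

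Zfp365, also called DBZ, encodes a protein that binds the scaffold protein DISC1. Its brightest probe read 4.65, 4.85 and 4.50 (log2 signal) on the producing arrays, against 6.63, 6.50 and 6.39 on the non-producing arrays. All 3 non-producing arrays lay well above the range of lowest detected signals and all 3 producing arrays lay below it. This put the gene at least 2.68-fold lower in producing, the widest bound of the 6. Its second tested probe differed by -0.52, also lower in producing. Its remaining probe came closest to detection in producing, and at a detection score of 0.90 the gene no longer counted as detected in non-producing alone.

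Zfp941 read 4.48, 4.68 and 4.93 on the producing arrays, against 6.02, 5.78 and 5.83 on the non-producing arrays. The groups did not overlap, and the gene was at least 1.73-fold lower in producing. It stayed in the set at detection scores of 0.99 and 0.90. Of the 6 bounds, only that of Zfp365 exceeded 2-fold.

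The other 4 lay close to the edge of detection. Zfp870 read 5.54, 5.50 and 5.14 in producing, against 4.53, 4.71 and 4.62 in non-producing, and was at least 1.30-fold higher in producing. Zfp516, which works with the factor PRDM16 in brown fat, read 5.38, 5.14 and 5.59 in producing, against 4.77, 4.76 and 4.66 in non-producing (at least 1.28-fold higher). In both genes the lowest producing array was just above the range of lowest detected signals.

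Zfp940 read 5.02, 4.85 and 4.81 in producing, against 5.12, 5.40 and 5.36 in non-producing, and was at least 1.16-fold lower in producing. Zfp11 read 4.65, 5.04 and 4.95 in producing, against 5.31, 5.11 and 5.38 in non-producing (at least 1.14-fold lower). The arrays of the hybridomas came within about 0.1 of each other in both genes. At a detection score of 0.99 the set held 4 genes (Zfp365, Zfp467, Zfp90 and Zfp941), and at 0.90 it held 3 (Zfp516, Zfp870 and Zfp941). Without producing array 2 it held 8 and without non-producing array 1 it held 7.

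**Figure D2:**
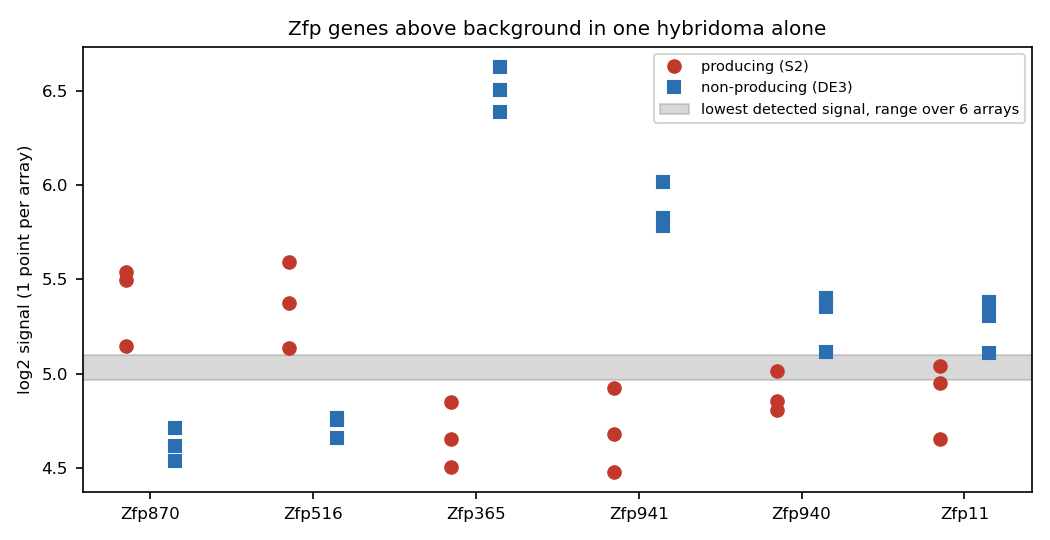
Log2 signal (y axis) on each of the 3 producing (red circles) and 3 non-producing (blue squares) arrays for the 6 Zfp genes detected in one hybridoma alone. The grey band is the range of the lowest detected signal over the 6 arrays (4.97 to 5.10); Zfp365 and Zfp941 lie furthest from it on the non-producing arrays.

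The start regions of Zfp365 and Zfp941 are printed because these genes had the widest bounds, and that of Zfp940 because it holds an element shared by many Zfp genes that is described further on. Each runs from 250 bases before to 50 bases after the gene start in RefSeq on GRCm38.p6, in the direction of the gene, which is on the minus strand in all 3. Zfp365 lies at chr10:67912613-67912912, Zfp941 at chr7:140822129-140822428 and Zfp940 at chr7:29853599-29853898. Capitals mark an E-box (CACGTG) in Zfp365 and CCAAT boxes on either strand in Zfp941. In Zfp940 they mark a CCAAT box, the sequence TGACGT, the core of a cAMP response element, and, on the opposite strand, the element ACTACA, any 2 bases, TCC.
Zfp365: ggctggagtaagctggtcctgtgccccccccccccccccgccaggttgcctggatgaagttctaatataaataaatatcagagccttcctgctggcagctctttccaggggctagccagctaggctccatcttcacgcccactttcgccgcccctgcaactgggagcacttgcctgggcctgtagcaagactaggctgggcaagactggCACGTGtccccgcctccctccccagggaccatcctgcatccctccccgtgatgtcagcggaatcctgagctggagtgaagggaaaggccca
Zfp941: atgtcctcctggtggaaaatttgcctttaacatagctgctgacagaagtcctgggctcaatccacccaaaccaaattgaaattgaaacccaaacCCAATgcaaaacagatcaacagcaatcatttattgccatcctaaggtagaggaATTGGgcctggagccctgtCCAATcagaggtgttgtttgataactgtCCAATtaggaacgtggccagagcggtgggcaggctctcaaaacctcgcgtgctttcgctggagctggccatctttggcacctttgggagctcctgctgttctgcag
Zfp940: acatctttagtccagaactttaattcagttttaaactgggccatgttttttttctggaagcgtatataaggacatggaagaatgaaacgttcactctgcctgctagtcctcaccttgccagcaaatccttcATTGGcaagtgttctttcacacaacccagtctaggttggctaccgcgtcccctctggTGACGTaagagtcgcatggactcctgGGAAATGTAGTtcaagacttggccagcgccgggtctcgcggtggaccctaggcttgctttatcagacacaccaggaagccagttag
The Zfp941 region held 4 CCAAT boxes and 5 CG pairs, the Zfp365 region 8 CG pairs and the Zfp940 region 10. The median count was 17 CG pairs over the 198 regions of the 162 Zfp genes with an entry in that table, and 20 over the 9789 regions of tested genes.

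A further 22 genes were detected on some arrays of both hybridomas, and in 4 of them the fit gave an adjusted p under 0.05. These 4 met the detection rule through the hybridoma in which they were brighter, so their values are given without a test. Zfp90, whose human counterpart has an isoform that binds FOXP3, read 4.82, 5.13 and 4.89 in producing, against 5.49, 5.59 and 5.84 in non-producing, and was detected on 1 producing and 3 non-producing arrays. Zfp473, whose human counterpart takes part in histone pre-mRNA processing, read 5.16, 5.24 and 4.90 in producing, against 6.09, 5.74 and 5.68 in non-producing. Zfp467, known as EZI and a partner of STAT3, averaged 5.10 ± 0.08 in producing and 5.41 ± 0.06 in non-producing (SD, n = 3 each). Both were detected on 2 producing and 3 non-producing arrays. Zfp827, whose human counterpart recruits the NuRD complex to telomeres, read 5.38, 5.71 and 5.63 in producing, against 5.19, 4.83 and 5.09 in non-producing, and was detected on 3 producing and 2 non-producing arrays.

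At the edge of the rule itself, Zfp11 and Zfp365 (0 producing and 3 non-producing arrays), and Zfp13 and Zfp182 (1 producing and 2 non-producing arrays), were among 12 genes detected on exactly 3 arrays. Zfp13 averaged 4.94 in producing and 5.29 in non-producing, and Zfp182 averaged 5.10 in producing and 5.26 in non-producing. Just outside the rule were Zfp568, with 4.85 in producing and 4.94 in non-producing, and Zfp583, with 5.23 in producing and 4.86 in non-producing, each detected on exactly 2 arrays.

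Among genes detected on all 6 arrays, Zfp518b fell furthest. It read 7.23, 7.23 and 7.05 in producing, against 8.28, 8.14 and 7.95 in non-producing. The groups were clear of each other by more than their spread, and the difference was -0.95 ± 0.10 (SE), or 1.94-fold lower (limma, Benjamini-Hochberg adjusted p = 0.000321). The human counterpart of Zfp518b associates with the histone methyltransferase G9a.

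The next largest decreases were in Zfp623, Zfp738 and Zfp873, for which no role is given here. Zfp623 read 5.57, 5.97 and 5.52 in producing, against 6.67, 6.50 and 6.58 in non-producing (-0.89 ± 0.13, SE, limma adjusted p = 0.00117). Zfp738 read 5.62, 5.80 and 5.63 in producing, against 6.37, 6.43 and 6.68 in non-producing (-0.81 ± 0.10, SE, limma adjusted p = 0.000760), and its other probe fell by 0.55. No producing array reached a non-producing one in either gene. Zfp873 differed by -0.76 (limma adjusted p = 0.00334) with producing arrays at 5.19, 5.49 and 5.58, against 6.08, 6.41 and 6.05 in non-producing.

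Of the remaining 8 largest decreases, Zfp771 and Zfp397 passed on both of their probes. Zfp771 read 8.24, 8.35 and 8.27 in producing, against 9.06, 8.84 and 9.01 in non-producing, a difference of -0.68 (its other probe -0.69). Zfp397 differed by -0.62 and by -0.52 on its other probe. Zfp825 (-0.61), Zfp710 (-0.60), Zfp951 (-0.58) and Zfp12 (-0.57) fell as well, and the other probe of Zfp825, at -0.12, did not pass. Zfp644, whose human counterpart also associates with G9a, and Zfp318, which is required for IgD expression in B cells, closed the 12 with -0.50 each. All 12 decreases kept their call when any single array was left out and when each chromosome's median difference was removed.

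Zfp593 rose most among genes detected on all 6 arrays. Its yeast counterpart Bud20 acts in the assembly and export of the large ribosomal subunit. It read 7.41, 7.48 and 7.30 in producing, against 6.82, 6.59 and 6.77 in non-producing. Each producing array was above each non-producing one, and the difference was 0.67 ± 0.09 (SE), or 1.59-fold higher (limma, Benjamini-Hochberg adjusted p = 0.00103). Zfp597 read 9.26, 9.36 and 9.24 in producing, against 8.62, 8.70 and 8.62 in non-producing, higher by 0.64 ± 0.08 (SE, limma adjusted p = 0.000512). Zfp597 had the tightest arrays of this pair, with standard deviations of 0.07 in producing and 0.05 in non-producing (n = 3 each).

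Zfp36 encodes tristetraprolin, which binds AU-rich elements and speeds the decay of Tnf and other cytokine mRNAs. It read 7.60, 7.66 and 7.67 in producing, against 7.22, 7.23 and 7.27 in non-producing. Without overlap and with little spread, it was 1.33-fold higher in producing (0.41 ± 0.07, SE, limma adjusted p = 0.00347). With the common median this gene was at 0.13 and did not pass (limma adjusted p = 0.419), where the median of all genes was -0.23.

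The other increases among the largest 12 varied in how well they held. Zfp446 rose by 0.55, with its second probe at 0.51, and lost its call only with the common median (0.27). Zfp276 rose by 0.48 on its brightest probe while the other, at 0.01, did not pass, and Zfp704 rose by 0.35 while its other 3 probes, at 0.11, 0.05 and -0.21, did not. Zfp704 lost its call without producing array 1 (limma adjusted p = 0.0535). Zfp871 (0.58) was no longer past the test without non-producing array 2 or 3 (limma adjusted p up to 0.0860), and Zfp661 (0.56) without producing array 2 or 3 (up to 0.0655). Zfp661 read 5.89, 5.93 and 6.004 in producing, against 4.99, 5.63 and 5.50 in non-producing, where the first array stood apart. Zfp1 (0.38) lost its call without producing array 2 or 3 or non-producing array 2 or 3 (up to 0.0992). Zfp414 (0.37) lost it without producing array 2 or 3 or non-producing array 1 or 3 (up to 0.0919). Zfp119a (0.45) and Zfp943 (0.42) complete the 12. Both kept their call whichever array was left out, but not with chromosome medians removed (limma adjusted p = 0.169 and 0.352). Of the 12, only Zfp593, Zfp597 and Zfp661 passed with the common median.

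**Figure D3:**
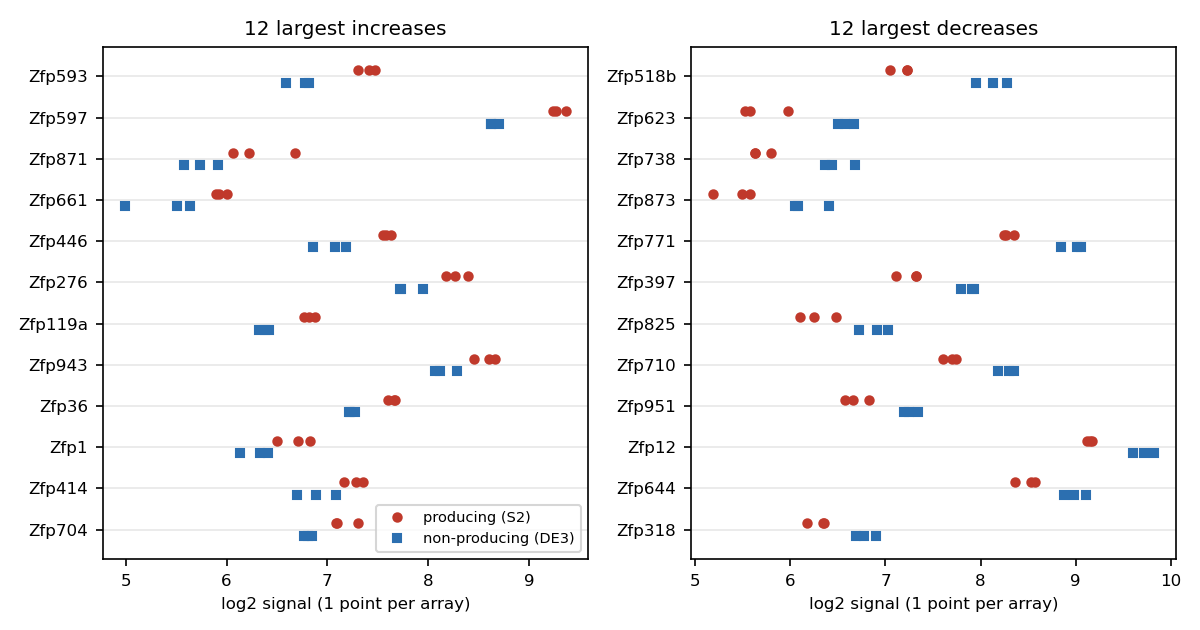
Log2 signal (x axis) on each producing (red circles) and non-producing (blue squares) array for the 12 largest increases (left) and 12 largest decreases (right) among Zfp genes past the test and detected on all 6 arrays. No group overlaps its counterpart in any of the 24 genes; Zfp871 and Zfp661 show the widest spread within a group.

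Over all 62 genes that passed, 30 kept their call in each of the 6 fits that left out an array and 32 lost it in at least 1. Only 52 of the 62 were detected on all 6 arrays. The others met the detection rule through the hybridoma in which they were brighter, and some of them, such as Zfp365 and Zfp941, are among the 30. The 30 and 32 are therefore a description. Of the 62, 22 had more than 1 tested probe. Another probe passed in the same direction in 15 of them and in the opposite direction in 0, while in 7 no other probe passed (Zfp236, Zfp276, Zfp473, Zfp62, Zfp704, Zfp825 and Zfp869).

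Another group of Zfp genes is known for roles in RNA, ribosomes or the spindle. Of 12 such genes 10 were tested, with a median of 0.02, and 9 of these were detected on all 6 arrays: 2 were higher and 3 lower, or 5 of 9 against 37.5% of all such genes (19.3% higher and 18.3% lower). Besides Zfp593, Zfp36 and Zfp318, the RNA-binding protein gene Zfp106 fell (-0.385 ± 0.122, SE, limma adjusted p = 0.0413), and so did Zfp326, whose protein links RNA polymerase II with splicing (-0.26 ± 0.08, SE, limma adjusted p = 0.0356). Zfp106 lost its call without producing array 1 or 3 or non-producing array 1 or 2 (up to 0.124). Zfp326 kept it only when the array left out was producing array 2 (up to 0.112 otherwise). Not past the test were Zfp207, a spindle and kinetochore factor (0.04), Zfp346 (-0.01), Zfp598, the ligase that senses collided ribosomes (0.12), Zfp622 (0.19) and Zfp638 (-0.22).

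Of 20 genes with roles in chromatin, imprinting or retroelement control, 16 had a probe and 13 were tested, with a median of -0.07. Of the 10 detected on all 6 arrays, 1 was higher and 2 lower, or 3 of 10 against 37.5% of all such genes. Zfp281, a repressor of Nanog in embryonic stem cells, read 8.23, 8.16 and 8.13 in producing, against 8.72, 8.48 and 8.51 in non-producing. The groups were apart, and it fell by 0.40 (SE 0.09, limma adjusted p = 0.0108), with its other probe at -0.29. Zfp644 was the other that fell. Zfp148, which encodes ZBP-89, rose by 0.30 on its brightest probe (limma adjusted p = 0.0231) and by 0.71 on the other, but with the common median the brightest probe was at -0.0009. Its call was kept only when the array left out was non-producing array 2 (adjusted p up to 0.0822 otherwise). Zfp516 and Zfp827, described above by their values, were not detected on all non-producing arrays and are not counted.

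The 8 tested genes with an adjusted p above the threshold included genes best known for silencing. Zfp809, which silences murine leukaemia virus in embryonic cells, read 7.49, 7.55 and 7.38 in producing, against 7.94, 7.69 and 7.65 in non-producing (-0.29 ± 0.10, SE, limma adjusted p = 0.0592). Its arrays did not overlap, though it missed the threshold. Zfp445, which protects imprints, was at -0.25 (adjusted p = 0.146), with overlapping arrays. Zfp42, the stem cell marker Rex1, was at 0.03, Zfp217 at -0.07, Zfp410, which in erythroid cells controls the NuRD subunit gene Chd4, at 0.11, Zfp451, a SUMO ligase, at -0.26, Zfp592 at -0.17 and Zfp687 at 0.22.

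None of the 7 tested genes with lymphocyte or signalling roles passed in either direction, where 36.7% of all tested genes passed. Of the 7, 6 were detected on all 6 arrays. The list held 13 genes, of which 10 had a probe. With so few genes, nothing is read from this count. Zfp335, needed for T cell maturation, read 6.52, 6.78 and 6.51 in producing, against 6.86, 6.84 and 6.83 in non-producing (-0.24 ± 0.09, SE, limma adjusted p = 0.0868). The groups were apart because the non-producing arrays hardly varied. Zfp91, a ubiquitin ligase of the noncanonical NF-κB pathway, read 9.69, 9.84 and 10.11 in producing, against 9.67, 9.82 and 9.73 in non-producing, with overlap (0.14, adjusted p = 0.384). Zfp35 (0.14), Zfp296 (0.0037), Zfp369 (-0.15), Zfp608 (0.11) and Zfp609 (0.19) did not pass either.

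Among the partners through which KRAB zinc finger proteins silence DNA, 19 were detected on all 6 arrays and 7 of these passed, against 37.5% of all such genes. Trim28, the corepressor itself, read 12.35, 12.27 and 12.37 in producing, against 12.36, 12.30 and 12.28 in non-producing, and the groups overlapped (0.01, limma adjusted p = 0.910). Setdb1, the methyltransferase it recruits, was at -0.0024 (adjusted p = 0.987). Of the 7 that passed, 4 were higher and 3 lower, and the median over all 20 tested genes was 0.0056. The largest differences among the 7 were in Atf7ip, the partner of Setdb1 (-0.54), and Daxx, a histone H3.3 chaperone (0.45). Uhrf1 and Morc3 followed with 0.37 each. The other probes of Atf7ip (-0.23) and Uhrf1 (0.41) did not pass. With chromosome medians removed all 4 higher genes, Daxx, Uhrf1, Morc3 and Ehmt2, on chromosomes 16 and 17, no longer passed. Of the 3 lower genes, Hdac2 no longer passed (limma adjusted p = 0.052), while Atf7ip and Smarcad1 did. Uhrf1 lost its call without producing array 1 or 2 or non-producing array 2 or 3. Ehmt2, Hdac2 and Smarcad1 also lost theirs in at least 1 fit that left out an array. Pphln1, a HUSH complex subunit, was detected on 1 producing array and 3 non-producing arrays, with 4.58, 5.23 and 4.73 in producing, against 5.61, 5.55 and 5.62 in non-producing.

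Zinc finger factors under other names were set beside these. Of 30 tested C2H2 factors (median -0.05), a list of lymphocyte and more general factors, 27 were detected on all 6 arrays. Of these 4 were higher and 7 lower, or 11 of 27 against 37.5%. Klf7 fell by 0.92 (limma adjusted p = 0.000156), Sall2 by 0.70 and Sp4 by 0.47, while Mzf1 rose by 0.70 and Wiz, a partner of G9a, by 0.47. Of 24 tested genes of the CCCH class, to which Zfp36 belongs (median 0.03), 23 were detected on all 6 arrays, and 4 of these were higher and 5 lower, or 9 of 23 against 37.5%. The remaining one, Zc3h12b, was detected in non-producing alone and was at least 1.085-fold lower in producing. Mbnl1, a splicing regulator, fell by 0.73 and Zc3h14 by 0.41, while Zc3h12a, the RNase Regnase-1, rose by 0.56 and Zfp36 by 0.41. Wiz and Zc3h12a no longer passed with chromosome medians removed (limma adjusted p = 0.0965 and 0.0798). The other probes of Mbnl1 (-0.30) and Sp4 (-0.40) did not pass. Of the other probes of Zc3h14, that at -0.32 passed and those at -0.25 to -0.21 did not.

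Zfp genes sit in clusters on a few chromosomes, and the calls were spread unevenly over these. On chromosome 17, 9 of 19 Zfp genes were higher and 2 lower, with a median of 0.14. Among all 481 tested genes there, 50.5% were higher and 4.57% lower, with a median of 0.30. The median of the Zfp genes was below that of the chromosome. Over the 16 Zfp genes detected on all 6 arrays, which leaves out Zfp870 among those that passed, 8 were higher and 2 lower. On chromosome 16, 3 of 4 Zfp genes were higher, where 41.4% of all its tested genes were. On chromosome 8, 3 of 15 Zfp genes were higher (13.7% of all genes there) and 4 lower (15.8%), and on chromosome 13, 0 of 16 were higher (17.1%) and 2 lower (22.1%). Over the 12 Zfp genes of chromosome 8 detected on all 6 arrays, 2 were higher and 3 lower. This leaves out Zfp827 and Zfp90 among those that passed. Over the 13 such genes of chromosome 13, 0 were higher and 2 lower.

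Of the Zfp genes of chromosome 5 that passed, none was higher. Of its 11 Zfp genes, 0 were higher and 7 lower (Zfp11, Zfp12, Zfp157, Zfp326, Zfp518b, Zfp644 and Zfp951), with a median of -0.32. Of all 618 tested genes there, 11.2% were higher and 17.8% lower, with a median of -0.04. Zfp11 was detected in non-producing alone, and over the 10 Zfp genes detected on all 6 arrays 0 were higher and 6 lower. The 7 genes were picked after their values were seen, no test was made of their number, and Zfp11, Zfp157 and Zfp326 lost their call in at least 1 fit that left out an array.

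Chromosome 7 held most Zfp genes, 49, of which 4 were higher and 7 lower, against 10.8% higher and 25.8% lower of its 722 tested genes. In order along the chromosome, the 36 Zfp genes up to Zfp658 held all 4 that were higher (Zfp524, Zfp446, Zfp94 and Zfp36) and 2 that were lower (Zfp235 and Zfp940). The 191 other tested genes in this stretch had 31 higher and 23 lower. The 13 Zfp genes from Zfp473 on held 0 that were higher and 5 that were lower (Zfp473, Zfp710, Zfp771, Zfp747 and Zfp941), and the 388 other genes there had 34 higher and 131 lower. The point of division was set after the values were seen. Over the 42 Zfp genes of this chromosome detected on all 6 arrays, which leaves out Zfp473, Zfp940 and Zfp941 among those that passed, 4 were higher and 4 lower. Zfp524, Zfp94, Zfp235 and Zfp940 lost their call in at least 1 fit that left out an array, and the other 7 of the 11 kept it.

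**Figure D4:**
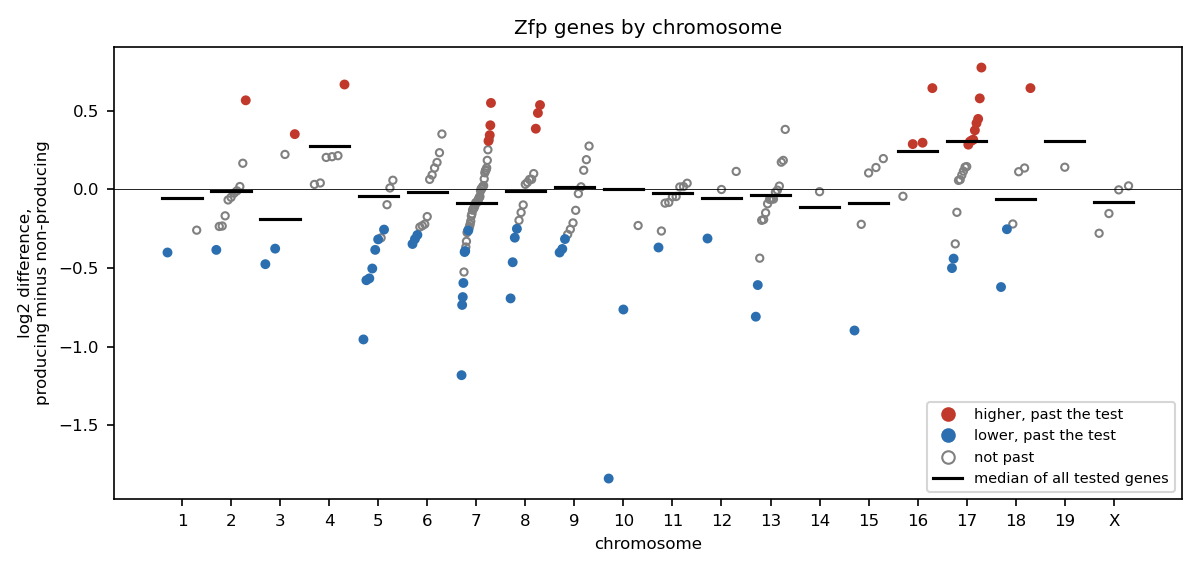
Log2 difference, producing minus non-producing (y axis), of each of the 194 Zfp genes by chromosome (x axis), with genes past the test higher (red) or lower (blue) and others open. Black bars are the median of all tested genes of that chromosome; they are highest for chromosomes 4, 16, 17 and 19, and the 7 blue points of chromosome 5 lie below its bar.

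When each chromosome's median was removed, 44 of the 62 calls were kept and 18 lost. Among the named genes, Zfp871 (0.28), Zfp119a (0.15), Zfp943 (0.13), Zfp414 (0.08) and Zfp148 (0.05) no longer passed as higher, all of them on chromosome 16 or 17. Zfp326 (-0.22) no longer passed as lower (limma adjusted p = 0.0657). Zfp11 (-0.35) and Zfp940 (-0.30) were also among the 18 lost. Both were detected in non-producing alone and are given without a test. Zfp318, which lies on chromosome 17 and goes against it, kept its call (limma adjusted p = 0.000481 after removal).

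**Figure D5:**
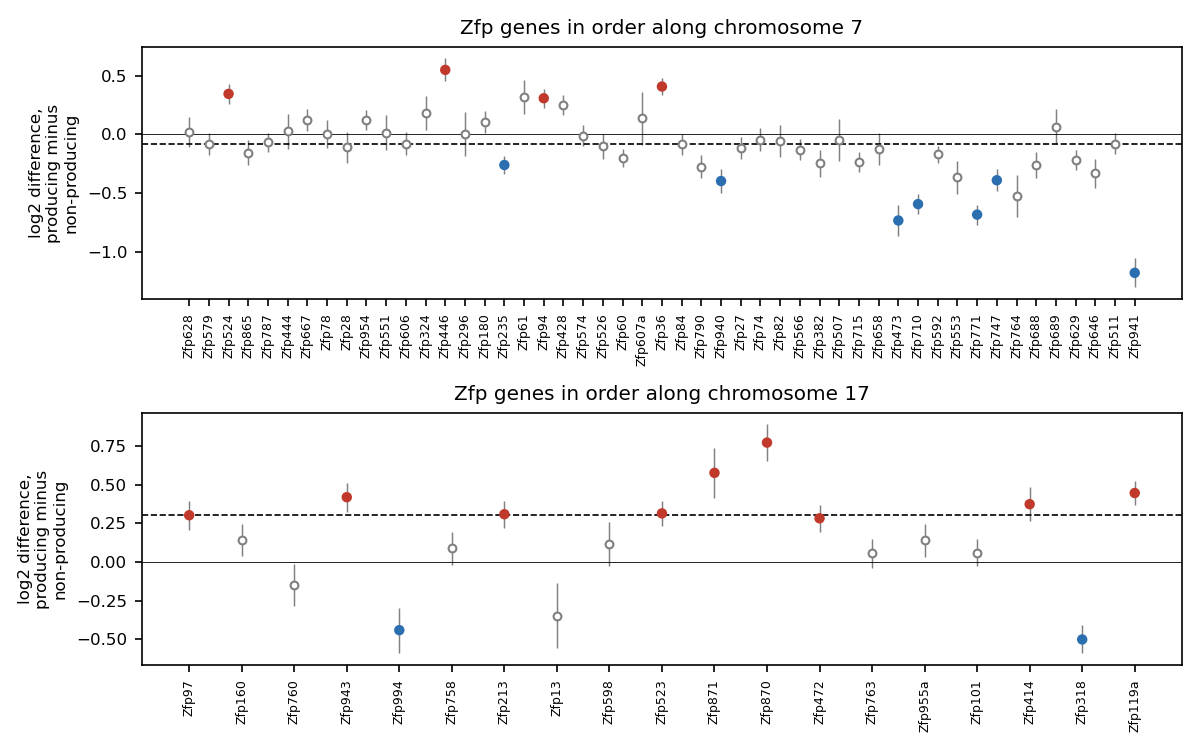
Log2 difference, producing minus non-producing (y axis, bars are standard errors), of Zfp genes in their order along chromosome 7 (top, 49 genes) and chromosome 17 (bottom, 19 genes), with spacing not to scale. Filled points passed the test, higher in red and lower in blue, open points did not, and the dashed line is the median of all tested genes of that chromosome.

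Neighbouring Zfp genes were set side by side. There were 64 pairs of successive Zfp genes with at most 3 genes between them, and both passed in 8 pairs, with 6 in the same direction and 2 in opposite ones, where 32% of single Zfp genes passed. Among the 8, the pairs with Zfp467, Zfp516 or Zfp870 rest on genes that met the detection rule through the hybridoma in which they were brighter. The share over neighbouring pairs of all genes was not computed, and nothing is read from the 8. Zfp943 read 8.60, 8.67 and 8.45 in producing, against 8.06, 8.12 and 8.28 in non-producing, and was higher by 0.42 (limma adjusted p = 0.0103). Zfp994, with 1 gene between them, was lower by 0.44 (limma adjusted p = 0.0484), with 5.49, 5.71 and 5.23 in producing, against 6.13, 5.92 and 5.71 in non-producing. The Zfp994 arrays touched, at producing array 2 and non-producing array 3, and its call was lost without producing array 1 or 3 or non-producing array 1 or 2. Zfp236 (-0.25, lost in each fit that left out an array) and its direct neighbour Zfp516, detected in producing alone, were the other opposite pair. On chromosome 13, 9 Zfp genes from Zfp458 to Zfp738 had no other tested gene among them, and only Zfp738 passed. That cluster is known from work in mice for regulators of sex-limited gene expression in liver.

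Zfp start regions often held one longer element. The letters ACTACA, any 2 bases and TCC, on either strand, make up much of the element bound by Zfp143 and by its relative Zfp523, whose human counterpart is ZNF76. They were in 14.6% of the 198 Zfp regions (29 regions), in 4.37% of the regions of tested genes and in 1.98% of all 32851 regions of the table. A match is a description of letters, not a shown binding site. Other motifs set Zfp genes less apart from tested genes. CCAAT was in 44.9% of Zfp regions and 37.9% of those of tested genes, CCGGAAG, bound by ETS factors, in 19.7% and 18.4%, TGACGT in 12.6% and 11.4%, and CACGTG in 6.57% and 10.2%. All were searched on both strands, and none is contained in another.

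The element was found in 28 Zfp genes, 11 on chromosome 7 and 8 on chromosome 13, and started between 224 and 6 bases before the gene start. Of the 23 detected on all 6 arrays, 4 passed the test, with Zfp661, Zfp94 and Zfp1 higher and Zfp738 lower, against 37.5% of all such genes. Zfp940 also held it and was detected in non-producing alone. The elements of these 5 genes and of the chromosome 13 cluster are printed so that the shared letters can be seen, with 7 flanking bases on each side, from RefSeq on GRCm38.p6, 5′ to 3′ on the strand named. Capitals mark the match.
Zfp661, chr2:127584739-127584763, plus strand: tgcatgaACTACACTTCCcagaagc
Zfp94, chr7:24316806-24316830, plus strand: cagttgaACTACATTTCCggtagtg
Zfp1, chr8:111643411-111643435, minus strand: gtgtaggACTACAATTCCcataatg
Zfp940, chr7:29853667-29853691, plus strand: gtcttgaACTACATTTCCcaggagt
Zfp458, chr13:67269154-67269178, plus strand: tgttgggACTACATTTCCcacaagt
Zfp457, chr13:67306473-67306497, plus strand: cgatgggACTACATTTCCcacaagt
Zfp595, chr13:67332593-67332617, plus strand: ggtagggACTACATTTCCcacaagt
Zfp429, chr13:67399820-67399844, plus strand: ggtgcggACTACATCTCCcagaagt
Zfp874b, chr13:67484270-67484294, plus strand: gctacagACTACATTTCCcacaagt
Zfp58, chr13:67500535-67500559, plus strand: tggccagACTACAATTCCcacaagt
Zfp748, chr13:67553160-67553184, plus strand: acggaagACTACACTTCCcacaagt
Zfp738, chr13:67683550-67683574, plus strand: ggacgggACTACACTTCCcacaagt
In 7 of the 8 chromosome 13 genes the match was followed by the same 7 bases, cacaagt, as in Zfp738, while 0 of the 21 elements on other chromosomes continued that way. Zfp738 fell by 0.81 and the 7 others of that cluster with the element, at -0.44 to 0.18, did not pass. Zfp523, which encodes a protein that can bind such elements, read 10.65, 10.58 and 10.46 in producing, against 10.25, 10.23 and 10.27 in non-producing. Its groups were apart, and it rose by 0.31 on its brightest probe (limma adjusted p = 0.0180) and by 0.58 on the other. With chromosome 17's median removed its call was lost (limma adjusted p = 0.871), and it was lost without producing array 1 or 2 or non-producing array 2 as well (up to 0.0674).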

How the data were processed

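Total RNA of 6 hybridoma samples was measured on Illumina arrays of 45281 probes. The authors deposited a table that gives, per the file headers, the average signal intensity of each probe on a linear scale without normalization. The deposited table also gives a detection score from 0 to 1 for each intensity, read here as 1 minus the detection p-value because it rises with signal. A second deposited table holds the authors' processed intensity, used as an alternative. No background setting of the scanner is stated, and the number of arrays limits the precision.

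Signals were corrected for background, quantile normalized and turned into log2 values with limma 3.58.1 in R 4.3.3 (neqc, offset 16, negative controls inferred from detection). Probes detected on at least 3 of 6 arrays, 17445 in all, entered a two-sided comparison of the groups with lmFit and eBayes and no covariate. P-values were adjusted by Benjamini-Hochberg over these probes with a threshold of 0.05. Each gene takes the values of its brightest tested probe. The fit was also run on simulated data with independent noise and few changed probes. That setting is unlike these data, so the run checked the code and not the calls made here. The number of unmatched columns was 0. Gene symbols came from the platform annotation, the chromosome and order of genes from a RefSeq gene table, and start regions from RefSeq on GRCm38.p6.

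For a lower bound, undetected arrays were first raised to their own lowest detected signal, and the group means were then subtracted. Named genes were those detected in one hybridoma alone, the 12 largest increases and 12 largest decreases past the test and detected on all 6 arrays, up to 4 on each side of the detection rule, the role groups, and up to 5 genes past the test in each further list. Other names were picked after their values were seen. The members and lists were chosen with earlier results of these data known. Alternatives covered the background correction, scaling, the authors' values, the filter, the choice of probe, the replicate number as a block, chromosome medians and each array left out. Nothing states whether replicate numbers pair the samples. Deviations of same-numbered arrays correlated at -0.061, -0.229 and 0.109, and those of other pairs at -0.258 to 0.341. So few arrays cannot settle it. Protein sequences were not used here, so finger counts were not computed.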

Additional observations from a re-analysis of the deposited data

How the results depend on the processing

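Of the 194 Zfp genes, 62 passed the test with all arrays and 41 to 51 passed when an array was left out. The latter counts include genes that had not passed with all arrays. All of these counts take in genes not detected on all 6 arrays and are a description. The fewest, 41, passed without non-producing array 2 or 3. In these fits 14 to 20 genes were higher and 26 to 32 lower. The median over the Zfp genes then ran from -0.07 to -0.04, and 2 to 3 genes had a 2-fold difference. Lists ran from 4 to 7 genes past the test for the KRAB machinery, 9 to 12 for C2H2 factors under other names and 6 to 8 for the CCCH class. In one hybridoma alone, 6 to 8 Zfp genes were detected. Scaling to a common median gave 6 higher, 81 lower, 5 with a 2-fold difference and a median of -0.28. There Zfp148 was at -0.0009 and lost its call (limma adjusted p = 0.9965). The count of 2-fold differences was 0 with an offset of 50, 1 without background correction, 1 with the authors' processed values and 0 with detection on all 6 arrays, where fewer probes were tested. With chromosome medians removed, 15 Zfp genes were higher, and 3 genes of the KRAB machinery and 6 of the CCCH class passed. With the replicate number as a block, 51 Zfp genes passed (18 higher and 33 lower), 6 of the CCCH class passed, and no other count moved by over 1.5 times. Whether the numbers pair the samples is not known. A detection score over 0.90 left 3 genes in one hybridoma alone. Causes of these changes were not tested. Of the values of the 55 named genes under the alternatives, 729 were counted as the same, 68 lost the call and 17 gained it. The remaining 1, that of Zfp148 with the common median, changed sign to -0.0009 and did not pass. Genes near 5 on the log2 scale lie at the limit of detection, so their folds are lower bounds or uncertain. Scaling decides how many genes count as higher, and chip position was not separable from group.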

Other observations

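Several Zfp genes had probes that read differently, and these were picked after their values were seen. In 6 genes the brightest probe did not pass the test while another did. Zfp346, which binds double-stranded RNA, was at -0.01 on its brightest probe and at 0.50 on the other (limma adjusted p = 0.0127). Zfp607a was at 0.14 with a standard error of 0.22 on its brightest probe and fell by 0.51 on the other (limma adjusted p = 0.00435). Zfp692 was at -0.05 on the brightest of its 3 probes and at 0.47 on another (limma adjusted p = 0.00186). Zfp251 was at 0.14 on its brightest probe and at -0.33 on the other, which passed (limma adjusted p = 0.0195). Zfp428 was at 0.25 on its brightest probe, which missed the threshold (limma adjusted p = 0.0523), and at 0.45 on the other probe. Zfp207, the spindle factor, was at 0.04 on its brightest probe and at 0.24 on the other (limma adjusted p = 0.0445). Whether such probes read different transcript forms was not tested.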
